A study of Mus musculus with 12 samples.

Results

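The genes described here encode acute phase and complement proteins that fat cells release, together with CD14, a cell surface receptor for bacterial lipopolysaccharide. The list held 8 symbols, Saa3, Lcn2, Hp, Orm1, C3, C4b, Cfb and Cd14. Members were the probe sets whose annotation named exactly 1 of these symbols, and 6 genes with 1 probe set each were found among 15267 genes tested. C3 and C4b are not analysed here, so Cfb was the only complement component among the measured members.

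In the acute phase response, inflammatory cytokines change the release of a set of plasma proteins, chiefly from liver but also from fat. Interleukin-6 type cytokines act on these genes through STAT3, interleukin-1 and tumour necrosis factor act through NF-κB, and factors of the C/EBP family take part in both routes. Complement is a cascade of plasma proteases that marks microbes and damaged cells, and adipocytes are known as a source of several of its components.

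Measurements were made in 3T3-L1 adipocytes, a mouse preadipocyte line turned into fat cells in culture. All groups had been given adenovirus 9 days after differentiation was started, at a multiplicity of infection of 500, carrying either a negative control shRNA or an shRNA specific for TBLR1, a subunit of NCoR and SMRT corepressor complexes encoded by Tbl1xr1. The labels' protocol gives 3 further days of culture, 2 h of preincubation in Krebs-Ringer buffer and 3 h of stimulation with 10 µM isoproterenol, a β-adrenergic agonist. The 4 groups were control shRNA without isoproterenol, TBLR1 shRNA without isoproterenol, control shRNA with it and TBLR1 shRNA with it, each measured on 3 Affymetrix arrays. Every cell group therefore carried a virus, and no group without virus was compared here. The labels name no other TBLR1 shRNA and no rescue. Other effects of this shRNA therefore cannot be told apart from loss of TBLR1. Nothing in the labels says that the 3 samples of a group came from different cultures. The p-values therefore reflect only sample-to-sample spread, part or all of which may be technical.

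Levels are deposited log2 expression values, and differences are given on that scale ± SE (n = 3 arrays a group), with p-values from limma adjusted over all genes and a threshold of 0.05. The targeted gene Tbl1xr1 read 7.20, 7.27 and 7.26 in untreated control cells and 6.45, 6.47 and 6.43 with TBLR1 shRNA. With isoproterenol it read 7.23, 7.34 and 7.29 against 6.48, 6.41 and 6.37, so it was lower on every TBLR1 shRNA array, to 57.7% and 54.9% of the control level. These are ratios of array signal, not of transcript amounts. The mean level of Tbl1xr1 was 6.85, at percentile 43 of all genes, so background may hide part of the fall. Within a group, correlations across genes were 0.998 to 0.999. All 6 members read lowest, within their group, on replicate 3 of untreated control shRNA cells, so results of that group are also given without it where they change. Actin probe sets read higher near the 3′ end than near the 5′ end, a sign of RNA quality. This log2 difference was 0.93 to 0.96 in untreated control cells and 0.88 to 0.91 in untreated TBLR1 shRNA cells, and 0.98 to 1.05 on the 6 isoproterenol arrays. Its part in the results was not tested.

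The 6 genes did not move as a block with the TBLR1 shRNA. Cfb rose 2.52-fold without isoproterenol and 2.87-fold with it, Cd14 and Lcn2 rose by smaller amounts, and Hp and Orm1 fell in both conditions. Saa3 fell in isoproterenol-treated cells, to 61.7% of the control level. Isoproterenol itself raised Cd14 with either shRNA, lowered Saa3 with the TBLR1 shRNA, and left the other members without a call.

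**Figure D1:**
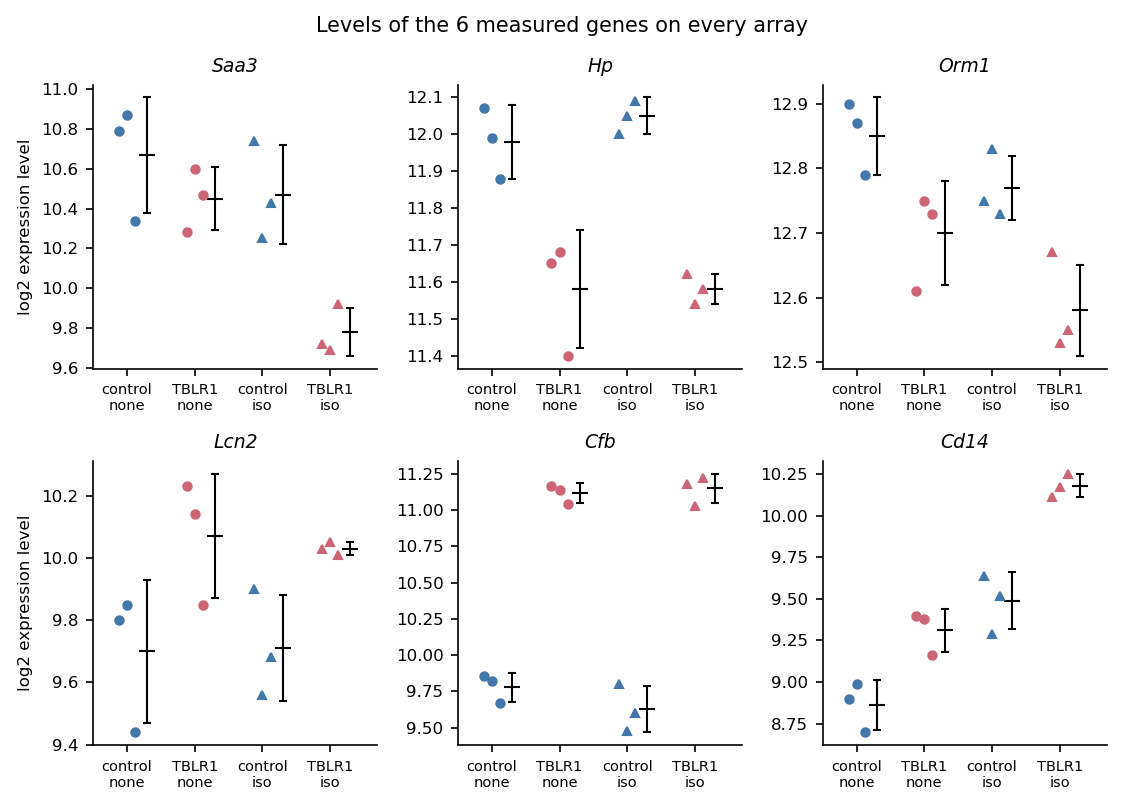
Each panel plots the log2 expression level (y axis, its own range per gene) of 1 gene on all 12 arrays, by shRNA (blue control, red TBLR1) and treatment (circles none, triangles isoproterenol); bars beside the points are group means ± SD, n = 3. Cfb lies at 11.03 or above on all TBLR1 shRNA arrays and at 9.86 or below on all control arrays, while Saa3 is lowest, at 9.69 to 9.92, on the TBLR1 shRNA arrays with isoproterenol.

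Saa3 encodes serum amyloid A3, an inducible amyloid A protein that mouse fat cells and macrophages make in inflammation. It read 10.79, 10.87 and 10.34 in untreated control cells and 10.28, 10.60 and 10.47 in untreated TBLR1 shRNA cells. With isoproterenol it read 10.74, 10.25 and 10.43 with the control shRNA and 9.72, 9.69 and 9.92 with the TBLR1 shRNA. The first 3 groups overlapped one another, and the 3 arrays with both TBLR1 shRNA and isoproterenol lay below all 9 others.

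Saa3 was thus lower by 0.70 ± 0.13 with TBLR1 shRNA in the presence of isoproterenol (adjusted p = 0.000387). Without isoproterenol the difference was -0.22 ± 0.13 (adjusted p = 0.226, 95% interval -0.50 to 0.06). That comparison depended on single arrays, from -0.12 without replicate 2 of the untreated control to -0.38 without its replicate 3, the only omission with which it passed (adjusted p = 0.0181). The response to isoproterenol was -0.67 ± 0.13 with the TBLR1 shRNA (adjusted p = 0.00408) and -0.19 ± 0.13 with the control shRNA (adjusted p = 0.382). The latter ran from -0.08 without treated control replicate 2 to -0.36 without untreated control replicate 3, and passed in neither case. The difference between these responses, -0.48 ± 0.19, had an unadjusted p of 0.0215 in limma and did not pass over all genes (adjusted p = 0.247), so the responses were not shown to differ between the shRNAs.

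Hp encodes haptoglobin, a plasma protein that binds free haemoglobin. It read 12.07, 11.99 and 11.88 in untreated control cells and 11.65, 11.68 and 11.40 in untreated TBLR1 shRNA cells. With isoproterenol it read 12.00, 12.05 and 12.09 with the control shRNA and 11.62, 11.54 and 11.58 with the TBLR1 shRNA. Every TBLR1 shRNA array lay below every control array, whatever the treatment.

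Hp fell by 0.40 ± 0.07 without isoproterenol (adjusted p = 0.00011), to 75.5% of the control level, and by 0.46 ± 0.07 with it (adjusted p = 2.26e-05). Isoproterenol gave no call for Hp with the control shRNA (0.06, 95% interval -0.08 to 0.20) or with the TBLR1 shRNA (0.00, interval -0.14 to 0.14).

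Orm1 encodes orosomucoid 1, the α1-acid glycoprotein that carries lipophilic compounds in plasma. It read 12.90, 12.87 and 12.79 in untreated control cells and 12.61, 12.75 and 12.73 in untreated TBLR1 shRNA cells. The isoproterenol arrays read 12.75, 12.83 and 12.73 with the control shRNA and 12.67, 12.53 and 12.55 with the TBLR1 shRNA. The shRNA groups did not overlap within either treatment, but the gaps between them were only a few hundredths on the log2 scale.

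Orm1 fell by 0.15 ± 0.05 (adjusted p = 0.0257) without and by 0.19 ± 0.05 (adjusted p = 0.00718) with isoproterenol. The call without isoproterenol ended without replicate 1 (-0.13, adjusted p = 0.0999) or 2 (-0.14, 0.0734) of the control or replicate 1 of the TBLR1 shRNA (-0.11, 0.134). Scaling mattered as well, since centring the arrays on their bacterial hybridisation controls gave -0.08 (adjusted p = 0.347) without and -0.07 (0.336) with isoproterenol, and cyclic loess gave -0.11 (0.122) and -0.13 (0.0556). The responses of Orm1 to isoproterenol were -0.08 with the control and -0.11 with the TBLR1 shRNA, and neither passed (adjusted p = 0.346 and 0.21).

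Lcn2 encodes lipocalin 2, which binds iron-carrying bacterial siderophores and is released by fat cells and neutrophils. It read 9.80, 9.85 and 9.44 in untreated control cells and 10.23, 10.14 and 9.85 in untreated TBLR1 shRNA cells. On the isoproterenol arrays it read 9.90, 9.56 and 9.68 with the control shRNA and 10.03, 10.05 and 10.01 with the TBLR1 shRNA. The untreated groups met at 9.85, and with isoproterenol the groups did not overlap.

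Lcn2 rose by 0.38 ± 0.11 (adjusted p = 0.00993) without and by 0.32 ± 0.11 (adjusted p = 0.0246) with isoproterenol. These calls were not stable to single arrays. Without isoproterenol the call ended without control replicate 3 (0.25, adjusted p = 0.0608) or TBLR1 replicate 1 (0.30, 0.0558). With isoproterenol it ended without control replicate 2 (0.24, 0.118) or 3 (0.30, 0.0722), without TBLR1 replicate 1 (0.32, 0.0542) or 2 (0.31, 0.0611), and with trend and robust variance settings (0.32, 0.073). Isoproterenol moved Lcn2 by 0.02 (95% interval -0.21 to 0.25) with the control and by -0.04 (interval -0.27 to 0.19) with the TBLR1 shRNA. Of 7 measured neutrophil markers none rose (1 without TBLR1 replicate 2) and 2 fell without isoproterenol, S100a8 (-0.24) and Camp (-0.23), calls that ended with hybridisation control centring (-0.16 for both, adjusted p = 0.0715 and 0.0659). That of S100a8 also ended without control replicate 1 (-0.20, 0.0527) or TBLR1 replicate 3 (-0.18, 0.0597). With isoproterenol 3 fell and none rose, but 1 rose with only the arrays compared and 2 with hybridisation control centring. Over all genes 17.7% rose and 20% fell without isoproterenol, and 19.5% and 22.3% with it. Of the 7 markers, 5 had mean levels below the median of all genes. The 7 markers' summed linear signal was 857 to 872 with TBLR1 shRNA against 930 to 987 with the control, and 843 to 909 against 996 to 1040 with isoproterenol. The cells came from a preadipocyte line, so this sum is not taken as a measure of neutrophil number. Its part in the result for Lcn2 was not tested.

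The 250 bases before the annotated starts of Saa3 and Lcn2 are shown because these were the 2 measured members matched in the sequence table used. They are RefSeq sequences of build GRCm38.p6 on the minus strand, at chr7:46715677-46715926 for Saa3 and chr2:32387740-32387989 for Lcn2, written 5′ to 3′ with the start at the right end. Capitals mark matches on either strand to TTNNGNAA (C/EBP type) or AANNGAAA (IRF type, for interferon regulatory factors).
Saa3: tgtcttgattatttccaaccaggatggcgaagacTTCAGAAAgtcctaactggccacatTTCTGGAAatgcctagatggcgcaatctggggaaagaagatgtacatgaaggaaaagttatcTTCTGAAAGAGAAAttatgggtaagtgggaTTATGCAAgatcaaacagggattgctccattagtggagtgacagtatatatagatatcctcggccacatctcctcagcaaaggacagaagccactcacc
Lcn2: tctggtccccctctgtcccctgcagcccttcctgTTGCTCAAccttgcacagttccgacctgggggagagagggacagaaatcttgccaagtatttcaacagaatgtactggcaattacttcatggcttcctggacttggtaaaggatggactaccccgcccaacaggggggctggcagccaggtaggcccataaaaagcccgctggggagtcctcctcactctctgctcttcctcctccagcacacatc

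The Saa3 window held 4 matches to TTNNGNAA, of which TTATGCAA lay 99 to 92 bases before the start. It also held 1 match to AANNGAAA, 123 to 116 bases before the start, which overlaps the C/EBP type match at 129 to 122. The Lcn2 window held 1 match to TTNNGNAA, 216 to 209 bases before the start, and none to AANNGAAA. Neither window held TTCNNNGAA (STAT type) or TGACGTCA (cAMP response element). Among 32851 such windows in the RefSeq table, 36.8% held TTNNGNAA, 21.3% AANNGAAA, 7.02% TTCNNNGAA and 1.55% TGACGTCA. These matches describe letters in the reference and are not measured binding sites.

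Cfb encodes complement factor B, whose active fragment is the protease of the alternative pathway C3 convertase. It read 9.86, 9.82 and 9.67 in untreated control cells and 11.17, 11.14 and 11.04 in untreated TBLR1 shRNA cells. The isoproterenol arrays read 9.80, 9.48 and 9.60 with the control shRNA and 11.18, 11.03 and 11.22 with the TBLR1 shRNA. All 6 TBLR1 shRNA arrays lay above all 6 control arrays, with a gap of more than 1 log2 unit.

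Cfb rose by 1.33 ± 0.07 without isoproterenol (adjusted p = 1.28e-09) and by 1.52 ± 0.07 with it (adjusted p = 2.26e-10). Leaving out any array kept these values at 1.28 to 1.37 and 1.45 to 1.61. Isoproterenol gave no call with the control shRNA (-0.16 ± 0.07, adjusted p = 0.174), although it did without replicate 1 of the treated control (-0.24, adjusted p = 0.0254) and with hybridisation control centring (-0.21, 0.0342). With the TBLR1 shRNA the response was 0.03 (95% interval -0.13 to 0.19), and the difference between the responses was 0.18 ± 0.10 (adjusted p = 0.482).

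C2, which encodes the corresponding protease of the classical pathway and is the next gene after Cfb in the RefSeq gene order, read 6.13 to 6.37 on all 12 arrays. The mean level of C2, 6.29, lay at percentile 25.8 of all genes, where a difference is hard to see. Its differences with TBLR1 shRNA were 0.00 (95% interval -0.10 to 0.10) without and 0.09 (-0.01 to 0.19) with isoproterenol. The latter passed with hybridisation control centring (0.20, adjusted p = 0.0121) and without replicate 3 of the treated control (0.13, 0.0489).

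Cd14 encodes the receptor that hands lipopolysaccharide to the complex of TLR4 and MD-2. It read 8.90, 8.99 and 8.70 in untreated control cells and 9.40, 9.38 and 9.16 in untreated TBLR1 shRNA cells. With isoproterenol it read 9.64, 9.29 and 9.52 with the control shRNA and 10.11, 10.17 and 10.25 with the TBLR1 shRNA. Untreated control cells were lowest and cells with both TBLR1 shRNA and isoproterenol highest, each clear of all other arrays. The groups with only 1 of the 2 overlapped.

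Cd14 rose with TBLR1 shRNA by 0.45 ± 0.09 (adjusted p = 0.000565) without and by 0.69 ± 0.09 (adjusted p = 6.73e-06) with isoproterenol. Isoproterenol raised it by 0.63 ± 0.09 (adjusted p = 7.7e-05) with the control shRNA and by 0.87 ± 0.09 (adjusted p = 8.21e-06) with the TBLR1 shRNA. The difference between the responses was 0.24 ± 0.12 (95% interval -0.02 to 0.51, adjusted p = 0.419). These 4 comparisons share groups in pairs, so they are not independent of one another.

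CD14 is also made by macrophages, and 15 macrophage markers were measured. Of these, Mpeg1, which encodes the pore-forming protein perforin-2, rose by 2.30 ± 0.08 without and by 2.42 ± 0.08 with isoproterenol. Csf1r, the receptor gene for the macrophage growth factor CSF1, fell by 0.12 and 0.22, calls that ended with hybridisation control centring (-0.05 and -0.11, adjusted p = 0.581 and 0.164); the untreated call also ended with only the arrays compared (adjusted p = 0.0512) and without control replicate 1 (-0.09, 0.115) or TBLR1 replicate 2 (-0.11, 0.0777). The other 13 did not pass in either condition, where 37.7% and 41.7% of all genes were called. With hybridisation control centring the markers that rose, Mpeg1 included, numbered 2 without and 4 with isoproterenol, in place of 1. They numbered 2 when untreated control replicate 2 was left out of the first comparison or treated control replicate 3 out of the second. The summed linear signal of the 15 was 1135 to 1194 in untreated control and 1762 to 1873 in untreated TBLR1 shRNA cells, and without Mpeg1 it was 989 to 1015 and 972 to 989. With isoproterenol it was 1143 to 1173 and 1814 to 1945, or 981 to 1013 and 985 to 1007 without Mpeg1. Of the 15 markers, 14, all but Mpeg1, had mean levels below the median of all genes, where changes are hard to see. The cells came from a preadipocyte line, so these markers are not taken as a measure of macrophage number. Their part in the result for Cd14 was not tested. In bulk RNA, more cells of a type and more RNA per cell cannot be told apart.

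**Figure D2:**
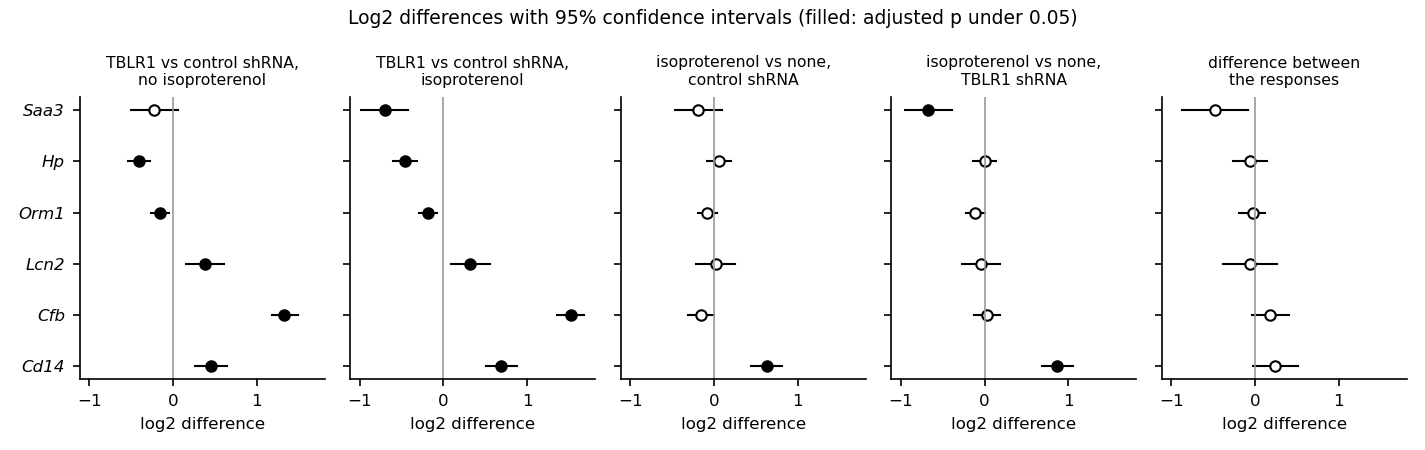
Each panel plots, for 1 comparison, the log2 difference (x axis) of the 6 measured genes with its 95% confidence interval; filled points passed an adjusted p of 0.05 in limma. Cfb is at 1.33 and 1.52 in the TBLR1 shRNA comparisons, only Cd14 is filled in both isoproterenol comparisons, and no point is filled for the difference between the responses.

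Among the 6 measured members, 3 rose and 2 fell with TBLR1 shRNA without isoproterenol, where 37.7% of all genes tested were called. With isoproterenol 3 rose and 3 fell, against 41.7% called over all genes. The shares of all genes called higher and lower were 17.7% and 20% without and 19.5% and 22.3% with isoproterenol, and with hybridisation control centring 66.6% and 75% of the called genes were higher, against 46.9% and 46.7% in the deposited scaling. That centring moved the median difference of all genes from -0.01 to 0.06 and 0.10, and it changed the direction of no member in the TBLR1 shRNA comparisons. The arrays of the shRNA groups did not overlap for 4 of 6 members without isoproterenol, where 46.9% of all genes had no overlap, and for 6 of 6 with it, where 49.1% had none. The members' median difference was 0.11 without and 0.07 with isoproterenol.

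Isoproterenol called 1 of 6 members with the control shRNA, Cd14, where 18.6% of all genes were called, 7.7% higher and 10.9% lower. With the TBLR1 shRNA it called 2 members, Cd14 higher and Saa3 lower, where 8.86% of all genes were called, 4.09% higher and 4.78% lower. The arrays with and without isoproterenol did not overlap for 1 of 6 members with the control and 2 of 6 with the TBLR1 shRNA, beside 33.2% and 25.2% of all genes. Of the 6 members none was called for the difference between the responses by limma and 1 had an unadjusted p below 0.05. Over all genes 2.4% were called, 1.07% higher and 1.33% lower. The members' medians were -0.03, -0.02 and -0.05 in these 3 comparisons, beside 0.00 for all genes.

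Paralogues of the members were measured by their own probe sets, and signal shared between such similar genes cannot be told apart from their own. They are named for their kinship after their values were seen. Saa2 fell by 0.41 ± 0.05 without and by 0.54 ± 0.05 with isoproterenol, and it read 6.36 to 6.45 and 6.42 to 6.52 on the TBLR1 shRNA arrays against 6.72 to 6.88 and 6.89 to 7.09 on the controls. Saa1 fell by 0.23 and 0.22, calls that ended with hybridisation control centring (-0.16 and -0.11, adjusted p = 0.0838 and 0.213), and with isoproterenol also without TBLR1 replicate 2 (-0.15, 0.0578). Unlike Saa3, Saa1 and Saa2 were not lowered by isoproterenol with the TBLR1 shRNA (0.09 and 0.06, adjusted p = 0.413 and 0.614). In untreated TBLR1 shRNA cells they had means of 6.14 and 6.40, with little room for a fall, beside 10.45 for Saa3. The contrast with Saa3 was not tested. Orm2 differed by 0.03 and -0.16 and Orm3 by 0.02 and -0.15 in the TBLR1 shRNA comparisons, none of which passed. The value of Orm2 with isoproterenol lay near the threshold (adjusted p = 0.0542), and it passed in 6 alternatives. These were array weights (0.038), trend and robust variances (0.0432), the dimmest 33% of genes left out (0.0424), only the arrays compared (0.0407), and leaving out replicate 3 of the untreated control (0.0255) or replicate 2 of the treated control (-0.22, 0.0197). Orm3 passed without TBLR1 replicate 2 (-0.22, 0.0302).

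Other genes of the acute phase response also went both ways, and the share called was near that of all genes. Of all genes 37.7% were called without isoproterenol (17.7% higher, 20% lower). With it 41.7% were called (19.5% higher, 22.3% lower). Of 28 measured, 4 rose and 7 fell with TBLR1 shRNA without isoproterenol, and 3 rose and 9 fell with it (5 fell with hybridisation control centring), with medians of -0.02 and -0.09 beside -0.01 for all genes. Hpx, which encodes the haem carrier hemopexin, rose by 0.90 ± 0.05 and 0.75 ± 0.05, and Ptx3, which encodes the pattern recognition protein pentraxin 3, rose by 0.75 ± 0.10 and 0.98 ± 0.10. Itih4, an inter-α-trypsin inhibitor heavy chain gene, fell by 0.96 ± 0.06 and 1.17 ± 0.06. Hpx read 7.85, 7.97 and 7.74 in untreated control cells and 8.80, 8.77 and 8.69 in untreated TBLR1 shRNA cells, so that it moved opposite to Hp, the member whose product binds haemoglobin.

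Over all genes isoproterenol called 7.7% higher and 10.9% lower with the control shRNA, and 4.09% and 4.78% with the TBLR1 shRNA. Of the 28 it raised 7 and lowered none with the control shRNA, and raised 2 with the TBLR1 shRNA. The first count was 4 without untreated replicate 2 or treated replicate 3 of the control shRNA, with only the arrays compared and without the dimmest 33% of genes. It was 3 without treated replicate 1 of the control shRNA. With hybridisation control centring 3 rose and 1 fell. The second was 1 without untreated TBLR1 shRNA replicate 2 or 3 and 4 without replicate 1. Hpx rose by 0.71 ± 0.05 and 0.56 ± 0.05 and the metallothionein gene Mt2 by 0.25 ± 0.05 and 0.23 ± 0.05. The second call of Mt2 ended without replicate 2 (0.22, adjusted p = 0.0526) or 3 (0.19, 0.0759) of untreated TBLR1 shRNA cells. Hpx, like Cd14, was thus raised by either treatment alone, reading 8.56, 8.52 and 8.60 with isoproterenol and 9.27, 9.29 and 9.38 with both.

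**Figure D3:**
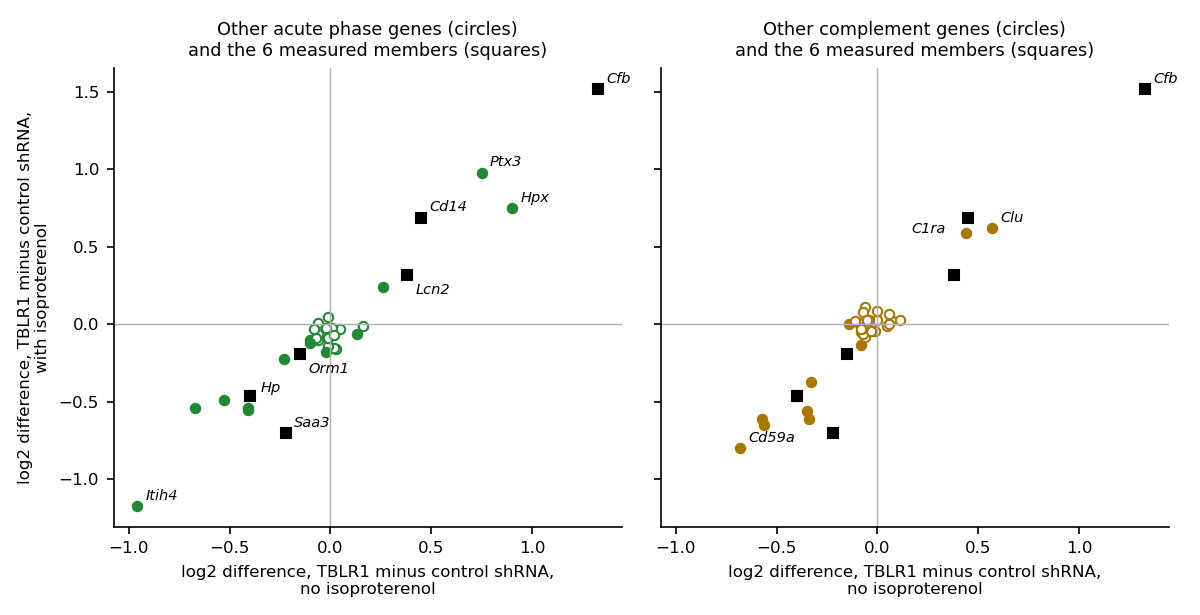
Log2 differences between TBLR1 and control shRNA without (x axis) and with isoproterenol (y axis) for 28 other acute phase genes and 31 other complement genes (circles) and the 6 measured members (squares); filled symbols passed in at least 1 of the comparisons, which share no array. Cfb at 1.33 and 1.52 lies farthest up and to the right and Itih4 at -0.96 and -1.17 farthest down and to the left.

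The other complement genes were mostly without a call, but many of them had low levels, where a change is hard to detect. Mean levels were 6.06 for C1qa, 6.34 for C6 and 5.89 for Mbl2, beside 9.62 for Cd59a and 9.07 for Clu. Of 31 measured, 2 rose and 7 fell in either TBLR1 shRNA comparison, with medians of -0.06 without and 0.00 with isoproterenol. Over all genes 37.7% and 41.7% were called. With isoproterenol the genes that rose numbered 4 without control replicate 3 and 6 with hybridisation control centring. Cd59a, whose product blocks the membrane attack complex, fell by 0.68 ± 0.06 without isoproterenol (9.99, 9.94 and 10.01 against 9.24, 9.35 and 9.31) and by 0.80 ± 0.06 with it. Cd55, which encodes decay-accelerating factor, fell by 0.34 and 0.61, and Cr1l, the gene of the rodent regulator Crry, fell by 0.33 and 0.37. Cd46, another gene of a surface regulator with a low mean level of 6.52, differed by -0.11 (adjusted p = 0.177) and 0.02 (0.848) and did not pass. Cr1l and Cd46 are named for their role after their values were seen. Clu, which encodes clusterin, a soluble inhibitor of the terminal complex, rose by 0.57 ± 0.04 and 0.62 ± 0.04.

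The partner proteases of the first complement component moved apart. C1s1 fell by 0.57 ± 0.04 and 0.61 ± 0.04, whereas C1ra, named after its values were seen, rose by 0.44 ± 0.08 (8.91, 8.93 and 8.65 against 9.32, 9.28 and 9.21) and 0.59 ± 0.08. Isoproterenol raised 7.7% of all genes with the control shRNA and 4.09% with the TBLR1 shRNA. Of the 31 it raised 1 with the control shRNA, Cd55 (0.47 ± 0.06). With the TBLR1 shRNA Cd55 read 0.19 ± 0.06 (adjusted p = 0.073), which passed without replicate 2 of treated TBLR1 shRNA cells (0.29, 0.00202). The only call there was Clu (0.17), which ended without replicate 3 of untreated (0.14, 0.106) or replicate 1 of treated TBLR1 shRNA cells (0.15, 0.0672) and with hybridisation control centring (0.16, 0.147).

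Among 22 measured cytokines and receptors that drive the response, Il6, the gene of interleukin-6, differed most in all 4 comparisons of groups. Il6 read 10.21, 10.14 and 9.49 in untreated control cells and 11.24, 10.66 and 10.58 in untreated TBLR1 shRNA cells, and 11.37, 11.35 and 11.40 against 12.01, 11.96 and 12.04 with isoproterenol. The 4 groups followed one another without overlap. Il6 rose by 0.88 ± 0.16 and 0.62 ± 0.16 with TBLR1 shRNA and by 1.43 ± 0.16 and 1.18 ± 0.16 with isoproterenol. Over the list 9 rose and 4 fell with TBLR1 shRNA without isoproterenol and 8 and 3 with it, with medians of 0.07 and 0.03. Among all genes 17.7% rose and 20% fell without isoproterenol, and 19.5% and 22.3% with it. The 9 that rose were 3 without untreated control replicate 3 and 4 without untreated TBLR1 replicate 1, and with hybridisation control centring 1 in place of 3 fell with isoproterenol. Tnf and Il1b, named for their role, differed by at most 0.05 in the TBLR1 shRNA comparisons and did not pass. Their mean levels were low, 6.73 and 6.35.

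Genes of the C/EBP family went both ways. Ddit3, which encodes the family member CHOP, was higher with TBLR1 shRNA in isoproterenol-treated cells (1.23). Without isoproterenol its means were 11.80 with the control and 12.30 with the TBLR1 shRNA. Isoproterenol lowered Ddit3 with the control shRNA (-0.81). Cebpa, Cebpb and Cebpd were lower with TBLR1 shRNA in isoproterenol-treated cells. Cebpa fell by 0.64 ± 0.05 and Cebpd, named for its role, by 0.41 ± 0.08, and Cebpb fell by 0.19 ± 0.04, a call that ended with hybridisation control centring (-0.08, adjusted p = 0.317). Without isoproterenol Cebpa and Cebpd fell by 0.25 ± 0.05 and 0.33 ± 0.08 while Cebpb rose by 0.41 ± 0.04. Isoproterenol raised Cebpb by 1.10 ± 0.04 with the control and by 0.50 ± 0.04 with the TBLR1 shRNA. It raised Cebpa by 0.60 ± 0.05 with the control and by 0.21 ± 0.05 with the TBLR1 shRNA, and the second call ended without replicate 1 of untreated (0.15, adjusted p = 0.0616) or replicates 1 (0.19, 0.0593) or 2 (0.20, 0.0705) of treated TBLR1 shRNA cells and with hybridisation control centring (0.20, 0.0612).

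**Figure D4:**
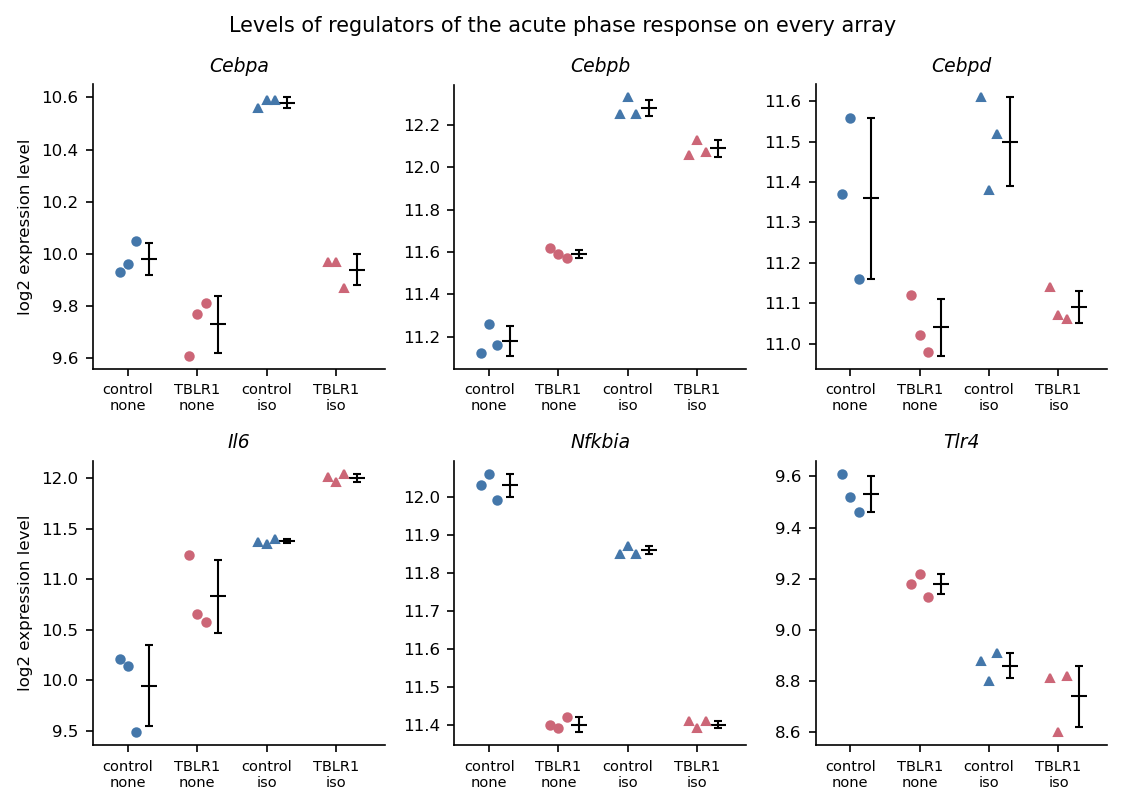
Log2 expression levels (y axis, its own range per gene) of Cebpa, Cebpb, Cebpd, Il6, Nfkbia and Tlr4 on all 12 arrays, by shRNA (blue control, red TBLR1) and treatment (circles none, triangles isoproterenol); bars are means ± SD, n = 3. Il6 rises through the 4 groups from 9.49 to 12.04 on single arrays, and Nfkbia lies at 11.39 to 11.42 on all TBLR1 shRNA arrays.

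Of 29 measured signalling and transcription factors of the response, 10 rose and 6 fell in either TBLR1 shRNA comparison, with medians of 0.05 and 0.04. These counts stand beside 17.7% of all genes higher and 20% lower without isoproterenol, and 19.5% and 22.3% with it. Irf7, an interferon-induced factor, rose by 2.23 ± 0.06 and 2.36 ± 0.06, and Stat2, a mediator of interferon signals, rose by 0.58 ± 0.06 and 0.93 ± 0.06. Nfkbia, the gene of the NF-κB inhibitor IκBα, read 12.03, 12.06 and 11.99 in untreated control cells and 11.40, 11.39 and 11.42 in untreated TBLR1 shRNA cells, a fall of 0.62 ± 0.04. It fell by 0.46 ± 0.04 with isoproterenol. Stat3, named for its role, differed by 0.05 and -0.05 and did not pass, but RNA levels do not show STAT3 activity. Socs3, also named for its role, rose from a mean of 8.86 to 9.30 with TBLR1 shRNA without isoproterenol. That call ended without control replicate 3 (0.23, adjusted p = 0.0633) or TBLR1 replicate 1 (0.33, 0.0823) and with trend and robust variances (0.44, 0.0712). With isoproterenol its means were 9.36 and 9.53, without a call in the main fit.

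Cd14 rose while its signalling partner did not. Tlr4 read 9.61, 9.52 and 9.46 in untreated control cells, 9.18, 9.22 and 9.13 with TBLR1 shRNA, 8.88, 8.80 and 8.91 with isoproterenol, and 8.81, 8.60 and 8.82 with both. Isoproterenol lowered it by 0.67 ± 0.06 with the control and by 0.43 ± 0.06 with the TBLR1 shRNA, and TBLR1 shRNA lowered it by 0.35 ± 0.06 without isoproterenol. With isoproterenol present the shRNA groups overlapped (-0.12, adjusted p = 0.113).

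Ly96, which encodes MD-2 and is named for its role, rose by 0.27 ± 0.06 without and by 0.16 ± 0.06 with isoproterenol (adjusted p = 0.0301); the second call ended without control replicate 2 (0.12, 0.138) or TBLR1 replicate 2 (0.17, 0.0532) or 3 (0.14, 0.108). Lbp, the gene of the plasma protein that delivers lipopolysaccharide to CD14, also named for its role, fell by 0.41 ± 0.05 and 0.55 ± 0.05. In the list of 18 genes of lipopolysaccharide and Toll-like receptor signalling, 5 rose and 7 fell without isoproterenol and 3 rose and 3 fell with it. The shares of all genes were 17.7% higher and 20% lower without isoproterenol, and 19.5% and 22.3% with it. The 7 that fell were 1 with hybridisation control centring and 4 without control replicate 2. With isoproterenol the 3 that rose were 1 without TBLR1 replicate 3, and 1 of the 3 fell with that centring. Tlr3, a receptor for double-stranded RNA, rose most, by 0.82 ± 0.09 and 1.08 ± 0.09. Tlr2, the receptor gene for bacterial lipoproteins, fell by 0.62 ± 0.06 and 0.49 ± 0.06 with isoproterenol, as Tlr4 did.

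In the TBLR1 shRNA comparisons 17.7% of all genes rose and 20% fell without isoproterenol, and 19.5% and 22.3% with it. Of 11 measured receptors for the products of the members, 1 fell without and 3 fell with isoproterenol, and none rose. With hybridisation control centring 1 fell and 2 rose with isoproterenol. Scarb1, whose product SR-BI binds serum amyloid A and lipoproteins, fell by 0.28 ± 0.06 and 0.62 ± 0.06. The lipocalin 2 receptor gene Slc22a17 differed by -0.07 without and fell by 0.14 with isoproterenol. That call ended without replicates 1 (-0.13, adjusted p = 0.0723) or 3 (-0.14, 0.0612) of the control or 1 (-0.15, 0.0508) or 3 (-0.12, 0.0965) of the TBLR1 shRNA and with hybridisation control centring (-0.03, 0.708). Cd163, the haptoglobin-haemoglobin receptor gene of macrophages, read within 0.06 of its reference group in each comparison and did not pass. Its mean level of 5.78 was close to the lowest value of the series, 5.39, where a difference is hard to see.

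Defining adipocyte markers were present. Adipoq and Fabp4, genes of adiponectin and a fatty acid carrier named for their role, had mean levels of 14.44 and 14.46, and Adipoq read 14.54 on all 6 control shRNA arrays. The highest value of the series was 14.58, so both genes read close to the top of the scale, where differences may be compressed. Markers of preadipocytes and fibroblasts were present too, with Col3a1 at a mean of 13.87 and Dlk1 at 10.65, so these levels do not separate the cell types. With TBLR1 shRNA 17.7% of all genes rose and 20% fell without isoproterenol, and 19.5% and 22.3% with it. Among 10 measured adipocyte markers 7 fell without and 8 with isoproterenol (5 with hybridisation control centring), and none rose. The fall of Hp and Orm1 was thus accompanied by lower adipocyte markers, such as Retn, the gene of the adipokine resistin (-1.58 and -1.60), and Cidec, a lipid droplet gene (-0.82 and -0.91). Over the 10 markers, differences ran from -1.58 to -0.02 without and from -1.60 to 0.03 with isoproterenol. Adipoq and Fabp4 weigh most in their summed linear signal. It was 84067 to 87640 in untreated control and 69149 to 70877 in untreated TBLR1 shRNA cells, and 84787 to 86287 and 67483 to 69303 with isoproterenol. Its part in the results for the members was not tested. Of 7 markers of preadipocytes and fibroblasts, 2 rose and 4 fell without isoproterenol, among them Thy1 (0.86) and Col1a1 (-0.81), and 2 rose and 3 fell with it. The summed linear signal of these 7, in which Col3a1 weighs most, was lower with TBLR1 shRNA too. It was 21948 to 22840 in untreated control and 15179 to 15644 in untreated TBLR1 shRNA cells. With isoproterenol it was 21252 to 23054 and 15116 to 15888.

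The genes nearest in pattern were sought for the 3 members whose group means spanned at least 0.5. Likeness was the root mean square difference over the 12 arrays after centring each gene on its own mean. For Cfb, whose own root mean square deviation was 0.72, the nearest were Parp12 (0.074), Znfx1 (0.078) and Lgals3bp (0.082). Parp12, Znfx1 and Lgals3bp rose by 1.26, 1.37 and 1.39 with TBLR1 shRNA without isoproterenol, beside 1.33 for Cfb. For Cd14 (0.49) the nearest were Cyp26b1 (0.145), Tubb2a (0.154) and Eps8 (0.161). For Saa3 (0.38) they were Tcp11l2 (0.181), Sowahc (0.205) and Klhl9 (0.206), which lay farther from Saa3 relative to its own deviation than the nearest genes of Cfb did from Cfb.

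**Figure D5:**
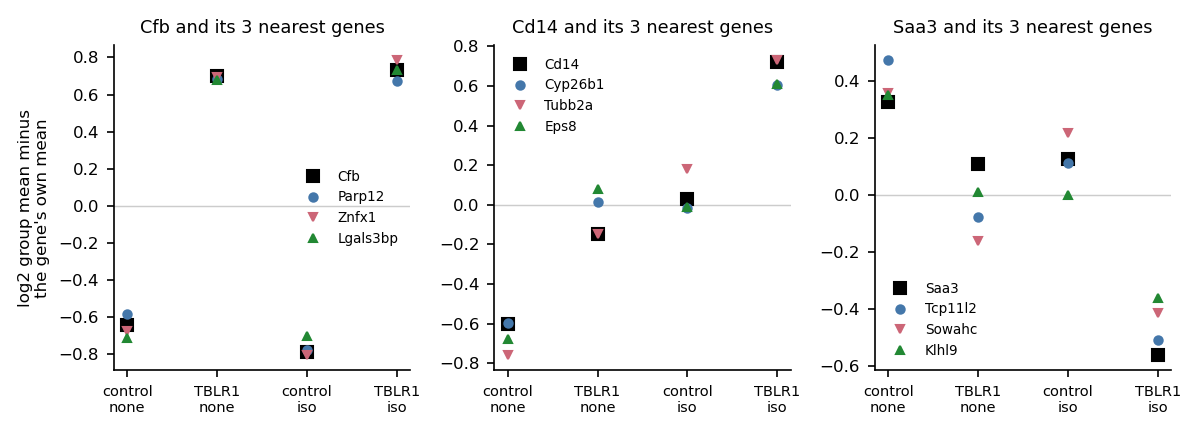
Group means on the log2 scale (y axis), each gene centred on the mean of its 4 group means, for Cfb, Cd14 and Saa3 (black squares) and the 3 genes nearest to each; the x axis gives shRNA and treatment. The genes nearest to Cfb lie almost on it in all groups, at distances of 0.074 to 0.082 over the 12 arrays, whereas those nearest to Saa3 lie 0.181 to 0.206 away.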

How the data were processed

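Biotin-labelled cRNA of 12 samples was measured on Affymetrix arrays, per the labels' protocols. The table deposited by the authors holds log2 levels per probe set, read as such from their range of 5.39 to 14.58. They were already quantile normalised, since the largest gap between arrays in their sorted values was 0.00781. The sources used here give no background correction, summarisation or genome build ("not stated"). Arrays give no counts, so the number of arrays limits precision.

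Of 16553 probe sets, 61 were controls, 1222 had no symbol in the platform annotation and 15270 had 1, for 15267 genes (the probe set with the higher mean for 3 genes). With limma 3.58.1 (R 4.3.3), 1 mean per group was fitted over the 12 arrays (8 residual and 7.38 prior degrees of freedom). There were 5 contrasts, with two-sided p-values adjusted by Benjamini-Hochberg over all genes and 0.05 as the threshold. The model was tested on simulated data. Figures used matplotlib 3.10.9.

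Members and lists were chosen with earlier results of these data known. Lists held 192 genes, 172 of them measured. Named genes were the members, Tbl1xr1, up to 3 called genes per list and contrast with the largest differences and no overlap of arrays, and the 3 genes nearest to members spanning 0.5. Genes named for role or kinship were added after their values were seen. Deviations of same-numbered arrays from their group means correlated at -0.21 to 0.09, so the numbers were not taken as pairs. Alternatives were hybridisation control centring, cyclic loess, trend and robust variances, only the arrays compared, the replicate number as a block, weights per array, dropping the dimmest 33% of genes, testing all probe sets, and leaving out each array.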

Additional observations from a re-analysis of the deposited data

Results flagged for a closer look

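A difference between the isoproterenol responses with the TBLR1 and the control shRNA was called by limma for 6 of the named genes and for none of the members. Ddit3, which encodes the stress factor CHOP, differed by 0.73 ± 0.07 (adjusted p = 1.86e-05). Cebpb and Cebpa, genes of C/EBP factors, differed by -0.60 ± 0.06 (adjusted p = 5.3e-05) and by -0.39 ± 0.07 (adjusted p = 0.0102). Pdgfra, a marker gene of preadipocytes and fibroblasts, differed by 0.46 ± 0.06 (adjusted p = 0.000751). Stat2 (0.35 ± 0.08) and Scarb1 (-0.34 ± 0.08) each had an adjusted p of 0.0403. The calls of Stat2 and Scarb1 each ended without most single arrays, with adjusted p-values up to 0.111 and 0.117. The replicate block also ended that of Scarb1 (-0.34, adjusted p = 0.0683), as did hybridisation control centring (-0.30, 0.111), and cyclic loess ended that of Stat2 (0.34, 0.0563).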

How the results depend on the processing

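Over all alternatives run, the members' differences stayed on their side of the threshold in 577 of the recomputed values, lost a call in 14 and gained one in 3, and no called difference changed direction; for 63 other genes these numbers were 6060, 113 and 44. Without isoproterenol, 1 member in place of 2 was called lower with TBLR1 shRNA with hybridisation control centring and with cyclic loess, and 1 to 3 when an array was left out. With the control shRNA isoproterenol called 1 member lower in place of 0 with hybridisation control centring, and 0 to 1 without an array. Over all genes, the isoproterenol comparison with TBLR1 shRNA gave 752 to 1681 calls without an array, against 1353, and the difference between responses 198 to 385, against 366; fewer arrays were fitted. Cyclic loess made 56.9% of the calls of isoproterenol with TBLR1 shRNA higher, against 46.1%, and hybridisation control centring 25.2% of those with the control shRNA, against 41.5%, and 59.9% of those for the difference between responses, against 44.5%.

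The replicate block gave 5623, 6279, 2723, 1267 and 320 calls over all genes in the 5 contrasts, against 5756, 6372, 2833, 1353 and 366, and changed no member's call. Among the other named genes it ended the call of Scarb1 for the difference between responses; 4 of 24 comparisons of an array with the other group's arrays matched best with its own number. Signal over background limits genes near the lowest value, 5.39.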
